A study of Homo sapiens with 18 samples.

Results

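Positive transcription elongation factor b (P-TEFb), the proteins that hold it inactive and a pair of chromatin readers were followed across 3 cell lines through 9 genes: CDK9, CCNT1, CCNT2, HEXIM1, HEXIM2, LARP7, MEPCE, BRD2 and BRD3. They were chosen by symbol for what their proteins do, with earlier results of these data known. They are 9 of the 26485 genes in the count files. All 9 had enough counts to be tested. RNA was sequenced from BxPC3, Panc327 and SUIT2, human pancreatic ductal adenocarcinoma lines, in 18 libraries. Each line was treated for 6 h with 100 nM THZ1, a covalent inhibitor of the transcriptional kinase CDK7 that also binds CDK12 and CDK13, or for 6 h with DMSO, the solvent, and each of the 6 groups had 3 libraries. The series title concerns the deacylase SIRT6, stress signalling and how cells withstand blocked transcription, and the labels give no genetic change for any group. Nothing in the labels says that replicate libraries were grown as separate cultures, and a p-value here therefore reflects only library-to-library spread, which may be technical.

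RNA polymerase II pauses soon after it starts on most genes. P-TEFb, which is the kinase CDK9 bound to cyclin T1 or T2, releases it by phosphorylating the polymerase and the pausing factors DSIF and NELF, and CDK7, the target of THZ1, activates CDK9 by phosphorylation. Much of the P-TEFb in a cell is held inactive by HEXIM1 or HEXIM2 on the 7SK small nuclear RNA, whose 5' end is capped by MEPCE and whose 3' end is bound by LARP7. BET proteins such as BRD2 and BRD3 bind acetylated histones through their bromodomains at active promoters and enhancers. HEXIM1 is named for its induction by hexamethylene bisacetamide, a compound that frees P-TEFb from 7SK, and its transcript is widely used as a marker of that release.

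The promoters of HEXIM1 and LARP7 are shown first. Only these members changed in 1 direction in all 3 lines at an adjusted p below 0.05. HEXIM1 rose and LARP7 fell with THZ1, and some of these calls depended on the scaling or on single libraries, as given below. The windows are from RefSeq on GRCh38.p14, run from 250 bases before to 50 bases from the annotated start on, and lie on the plus strand at chr17:45148225-45148524 and chr4:112636893-112637192. Capitals mark matches, on either strand, to 6 motifs: the TATA box as TATAAA, the CCAAT box under that spelling, an E-box as CACGTG, a full cAMP response element as TGACGTCA, a site form read by ATF4 with C/EBP proteins as TGATGNAAT and the GC box as GGGCGG.
HEXIM1: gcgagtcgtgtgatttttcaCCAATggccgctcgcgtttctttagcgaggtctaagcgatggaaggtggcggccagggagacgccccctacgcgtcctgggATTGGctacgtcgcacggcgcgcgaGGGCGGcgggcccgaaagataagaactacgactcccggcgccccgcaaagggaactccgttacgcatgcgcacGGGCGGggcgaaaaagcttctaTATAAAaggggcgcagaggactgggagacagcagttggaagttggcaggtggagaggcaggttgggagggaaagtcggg
LARP7: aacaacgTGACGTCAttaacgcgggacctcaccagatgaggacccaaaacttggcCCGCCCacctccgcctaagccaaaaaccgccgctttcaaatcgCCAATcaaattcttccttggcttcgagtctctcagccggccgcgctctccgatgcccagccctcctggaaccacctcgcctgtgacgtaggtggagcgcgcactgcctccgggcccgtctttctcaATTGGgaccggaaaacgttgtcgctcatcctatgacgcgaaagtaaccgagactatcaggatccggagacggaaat
HEXIM1 had TATAAA with its first base at -29, counting the start site as 0, and it was the only member of 9 with that match, which 11.5% of all 35116 windows held. It also had CCAAT matches at -230 and -149 and GC boxes at -124 and -51. These positions count from the RefSeq start of HEXIM1, and its start in GENCODE 29 lies 27 bases downstream. LARP7 had the full cAMP response element at -243, a match that 1.85% of windows held and no other member had, with CCAAT matches at -152 and -26 and a GC box at -195. Among the 9 members, 8 had GGGCGG, against 45.0% of all windows, and 4 had CCAAT (CCNT1, CCNT2, HEXIM1 and LARP7), against 34.6%. CACGTG was found for CCNT1 and MEPCE, against 7.26% of windows, and TGATGNAAT for none, against 0.991%. For a gene with several windows, the one nearest to the start of its principal transcript in GENCODE 29 was used. For HEXIM2, MEPCE and BRD2 that start lay outside the window used, 526, 184 and 66 bases from the window's own start site. Another window of HEXIM2 and another of MEPCE held CCAAT, and that window of MEPCE held no CACGTG. The members given above for CCAAT and CACGTG therefore depend on the choice of window. In the windows printed here no matches overlapped, and a match describes these letters only.

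By structure the members ranged widely. HEXIM1 is a single exon of 3.6 kb at chr17:45148502-45152101, and HEXIM2 lies on the same strand at chr17:45160700-45170040 with 4 exons in its principal transcript. CDK9 spans 5.11 kb at chr9:127785679-127790787 and MEPCE 5.34 kb at chr7:100428790-100434126. The longest members were CCNT2, with 41.1 kb at chr2:134918235-134959342, BRD3, with 38.2 kb at chr9:134030305-134068535, and CCNT1, with 28.5 kb at chr12:48688458-48716998. LARP7 spans 20.6 kb at chr4:112636964-112657592, and BRD2 12.8 kb at chr6:32968660-32981505. These coordinates are from GENCODE 29 on GRCh38.

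Gene counts per library ranged from 5626146 to 8631273. Levels are CPM, the counts of a gene relative to all gene counts of its library, after TMM scaling, which sets the typical gene as equal between libraries, so a rise or fall is relative to the median gene. With scaling by library size alone, the median gene itself moved by -0.35 on the log2 scale with THZ1 in BxPC3, by -0.34 in Panc327 and by 0.00 in SUIT2. Of the genes called, 26.8% in BxPC3 and 31.0% in Panc327 were then higher, in place of 50.8% and 48.5%. A gene was called when its edgeR quasi-likelihood p, adjusted by Benjamini-Hochberg over 14011 genes, was below 0.05. Bulk RNA cannot tell fewer cells of a kind apart from less RNA per cell. Reads aligned to several places made up 22.8% ± 0.814 of records with THZ1 and 12.8% ± 0.603 with DMSO in BxPC3, and 52.8% ± 1.82 with THZ1 and 13.6% ± 0.153 with DMSO in Panc327 (SD, n = 3). In SUIT2 they made up 12.9% ± 0.900 with THZ1 and 13.2% ± 0.751 with DMSO (SD, n = 3). The part of these shares in the changes below was not tested. All 6 markers of ductal epithelium were detected in every group, at 4682.7 to 10072.0 summed CPM, but not at like levels in each line. With DMSO, KRT7 averaged 13.6 CPM in SUIT2, against 1545.9 in BxPC3 and 995.3 in Panc327. CDH1 averaged 27.3 CPM in SUIT2, against 678.3 in BxPC3 and 625.4 in Panc327. Marker lists of leukocytes, endothelium, fibroblasts and acinar cells each summed to at most 18.6 CPM, and the leukocyte gene PTPRC was at 0 in every group but Panc327 with THZ1.

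With DMSO, BRD2 was the most abundant member per kilobase of exon and HEXIM2 the least in each of the 3 lines. In BxPC3 with DMSO, the mean level per kilobase was 39.3 CPM for BRD2, 31.0 for MEPCE, 27.3 for HEXIM1, 19.1 for CDK9, 10.6 for CCNT1 and for LARP7, 5.74 for BRD3, 3.76 for CCNT2 and 1.95 for HEXIM2. In Panc327 with DMSO, MEPCE stood at 15.7 CPM per kilobase, below HEXIM1 at 22.6, and in SUIT2 with DMSO it stood at 34.9, above HEXIM1 at 16.5.

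Comparing the lines with DMSO, 7 of 9 members were called in each pair. BxPC3 was higher than Panc327 for 6 members and lower for 1, where 38.6% of all tested genes were higher and 40.7% lower. MEPCE averaged 106.0 ± 3.05 CPM in BxPC3 and 53.6 ± 2.75 CPM in Panc327 (SD, n = 3), a log2 difference of 0.98 (SE 0.06, edgeR adjusted p = 1.46e-26). CDK9 averaged 57.2 ± 2.25 CPM in BxPC3 and 35.8 ± 2.24 CPM in Panc327 (SD, n = 3), a log2 difference of 0.68 (SE 0.07, edgeR adjusted p = 1.11e-14). CCNT2 was the member that was lower in BxPC3, by a log2 difference of -0.29 (edgeR adjusted p = 0.000489). BxPC3 was higher than SUIT2 for 2 members, CDK9 and HEXIM1, and lower for 5, where 38.9% of genes were higher and 39.7% lower. CDK9 differed by 0.53 on the log2 scale (SE 0.07, edgeR adjusted p = 9.63e-11) and HEXIM1 by 0.73 (SE 0.06, edgeR adjusted p = 1.49e-19). The call for CCNT1, at -0.13 (edgeR adjusted p = 0.0380), was lost without BxPC3 DMSO replicate 2 (-0.12, adjusted p = 0.0937), BxPC3 DMSO replicate 3 (-0.11, adjusted p = 0.112) or SUIT2 DMSO replicate 3 (-0.11, adjusted p = 0.113). The call for CCNT2, at -0.20 (edgeR adjusted p = 0.0219), was lost without BxPC3 DMSO replicate 2 (-0.15, adjusted p = 0.114), BxPC3 DMSO replicate 3 (-0.15, adjusted p = 0.123) or SUIT2 DMSO replicate 1 (-0.16, adjusted p = 0.106). Panc327 was higher than SUIT2 for 1 member, HEXIM1, and lower for 6, where 42.9% of genes were higher and 39.6% lower. HEXIM1 averaged 81.4 ± 1.08 CPM in Panc327 and 59.4 ± 2.62 CPM in SUIT2 (SD, n = 3), with a log2 difference of 0.46 (SE 0.06, edgeR adjusted p = 1.82e-10). MEPCE differed by -1.15 (SE 0.06, edgeR adjusted p = 1.38e-31). CDK9 differed by -0.14 (95% interval -0.29 to 0.01, edgeR adjusted p = 0.0769), and was called without Panc327 DMSO replicate 1 (-0.20, adjusted p = 0.0306) or SUIT2 DMSO replicate 3 (-0.18, adjusted p = 0.043). HEXIM2, the sparsely expressed paralog, was called higher in BxPC3 than in Panc327 (0.53, edgeR adjusted p = 0.0292), and that call was lost without BxPC3 DMSO replicate 2 (adjusted p = 0.0759) or 3 (0.0932), or without Panc327 DMSO replicate 1 (0.0814) or 2 (0.0985).

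With THZ1, some members were called higher and others lower in each line. Only CCNT1 and BRD2 were called in opposite directions between lines. In BxPC3 all 9 were called, 4 higher and 5 lower, where 69.4% of all tested genes were called, 35.2% higher and 34.1% lower. In Panc327 6 were called, 1 higher and 5 lower, where 73.4% of genes were called, 35.6% higher and 37.8% lower. In SUIT2 4 were called, 3 higher and 1 lower, where 14.6% of genes were called, 6.95% higher and 7.64% lower. The median log2 fold change of the 9 was -0.57 in BxPC3, -0.42 in Panc327 and 0.09 in SUIT2, where the median of all tested genes was 0.00, -0.01 and 0.01. HEXIM1 was the 1 member called higher in all 3 lines, a pattern that 3.62% of tested genes had, and LARP7 the 1 called lower in all 3, a pattern of 4.32%. CCNT1 and BRD2 were called higher in BxPC3 and lower in Panc327, a pattern of 3.14%. MEPCE and BRD3 were called lower in BxPC3 and Panc327, with both responses below that of SUIT2, which held for 20.7% of genes.

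**Figure D1:**
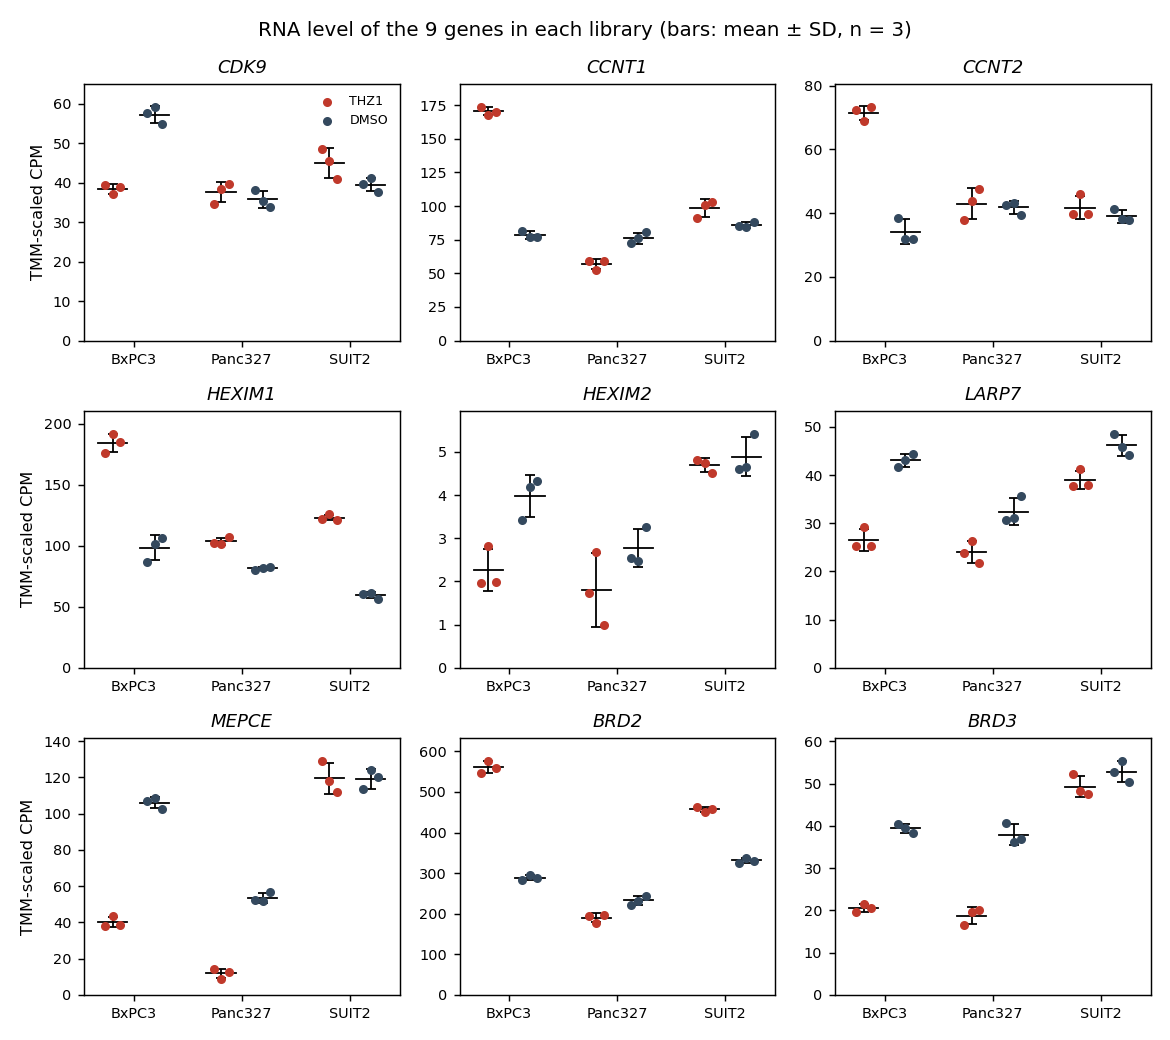
TMM-scaled CPM (vertical axes, from 0) of each of the 9 genes in each library by line (horizontal axes), THZ1 in red and DMSO in blue, with mean and SD of 3 libraries. HEXIM1 with THZ1 lies above DMSO in every line, at 176.1 to 191.3 CPM in BxPC3, 101.6 to 106.9 in Panc327 and 121.3 to 125.6 in SUIT2, whereas MEPCE with THZ1 falls to 8.90 to 14.2 CPM in Panc327 and overlaps DMSO in SUIT2.

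CDK9, the kinase of P-TEFb, fell in BxPC3 while both of its cyclins rose there. In BxPC3, CDK9 stood at 39.5, 37.1 and 39.0 CPM with THZ1, against 57.8, 59.2 and 54.8 CPM with DMSO. In Panc327, CDK9 stood at 34.7, 38.5 and 39.7 CPM with THZ1, against 38.2, 35.4 and 33.8 CPM with DMSO. In SUIT2, CDK9 stood at 48.6, 45.4 and 41.0 CPM with THZ1, against 39.8, 41.1 and 37.7 CPM with DMSO. All 3 THZ1 libraries of BxPC3 lay below all DMSO libraries, and the groups overlapped in the other 2 lines. CDK9 had a log2 fold change of -0.57 in BxPC3 (SE 0.08, edgeR adjusted p = 2.46e-10). It was 0.07 in Panc327 (95% interval -0.10 to 0.24, edgeR adjusted p = 0.485) and 0.19 in SUIT2 (0.04 to 0.34, adjusted p = 0.0752). With scaling by library size alone CDK9 in Panc327 was at -0.26 (adjusted p = 0.00462), and with RLE size factors at 0.18 (adjusted p = 0.0451), so its direction there depended on the scaling. In BxPC3 the value by library size alone was -0.97. Without SUIT2 THZ1 replicate 3 the rise in SUIT2 was called (0.25, adjusted p = 0.0302).

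CCNT1, which encodes cyclin T1, the main partner of CDK9, went in opposite directions in BxPC3 and Panc327. In BxPC3, CCNT1 stood at 173.7, 167.9 and 169.8 CPM with THZ1, against 81.8, 77.1 and 76.9 CPM with DMSO. In Panc327, CCNT1 was at 59.2, 52.6 and 58.8 CPM with THZ1, against 72.3, 75.9 and 80.4 CPM with DMSO. In SUIT2, CCNT1 was at 90.9, 100.9 and 103.3 CPM with THZ1, against 85.0, 84.5 and 88.2 CPM with DMSO. THZ1 and DMSO libraries did not overlap in any line, with THZ1 above in BxPC3 and SUIT2 and below in Panc327. CCNT1 had a log2 fold change of 1.12 in BxPC3 (SE 0.06, edgeR adjusted p = 8.62e-33), higher than that of 94.7% of tested genes. It was -0.42 in Panc327 (SE 0.07, edgeR adjusted p = 4.38e-08) and 0.19 in SUIT2 (SE 0.06, adjusted p = 0.0126). By library size alone CCNT1 was at 0.72 in BxPC3 and -0.75 in Panc327. The SUIT2 call was lost without THZ1 replicate 2 (0.17, adjusted p = 0.0636) or THZ1 replicate 3 (0.15, adjusted p = 0.111).

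CCNT2, which encodes the alternative partner cyclin T2, also rose in BxPC3. In BxPC3, CCNT2 stood at 72.2, 68.9 and 73.3 CPM with THZ1, against 38.6, 31.9 and 31.9 CPM with DMSO. In Panc327, CCNT2 was at 37.7, 43.7 and 47.5 CPM with THZ1, against 42.6, 43.3 and 39.4 CPM with DMSO. In SUIT2, CCNT2 was at 39.6, 45.9 and 39.7 CPM with THZ1, against 41.4, 38.1 and 37.7 CPM with DMSO. The groups were apart in BxPC3 and overlapped in the other 2 lines. CCNT2 had a log2 fold change of 1.07 in BxPC3 (SE 0.08, edgeR adjusted p = 8.81e-23), 0.03 in Panc327 (95% interval -0.13 to 0.20, adjusted p = 0.729) and 0.09 in SUIT2 (-0.06 to 0.25, adjusted p = 0.487). With scaling by library size alone the BxPC3 value was 0.67 and the Panc327 value -0.29 (adjusted p = 0.00148). An antisense gene, CCNT2-AS1, shares up to 148 bases of exon with CCNT2, and it had at most 8 counts in a library.

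HEXIM1, the inhibitor that 7SK RNA turns against P-TEFb, rose in all 3 lines, including SUIT2, the line with the fewest called genes. In BxPC3, HEXIM1 stood at 176.1, 191.3 and 185.1 CPM with THZ1, against 86.8, 101.1 and 106.6 CPM with DMSO. In Panc327, HEXIM1 was at 102.4, 101.6 and 106.9 CPM with THZ1, against 80.4, 81.3 and 82.5 CPM with DMSO. In SUIT2, HEXIM1 was at 122.0, 125.6 and 121.3 CPM with THZ1, against 60.1, 61.5 and 56.5 CPM with DMSO. Every THZ1 library lay above every DMSO library of its line. HEXIM1 had a log2 fold change of 0.91 in BxPC3 (SE 0.06, edgeR adjusted p = 2.28e-27), 0.35 in Panc327 (SE 0.06, adjusted p = 4e-07) and 1.05 in SUIT2 (SE 0.06, adjusted p = 7.54e-27). Among tested genes, 98.4% had a lower fold change in SUIT2, 89.9% in BxPC3 and 65.6% in Panc327. The rise in Panc327 was relative to the median gene: with scaling by library size alone it was 0.02 (adjusted p = 0.75), whereas BxPC3 stayed at 0.51 and SUIT2 at 1.03. AC138150.1, annotated on the opposite strand, shares up to 520 bases of exon with HEXIM1 and was not analysed here, and the strand setting of the counting is not given, so reads from the shared bases cannot be told apart.

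HEXIM2, the paralog that can take the place of HEXIM1 on 7SK, was expressed at a few CPM. In BxPC3, HEXIM2 had 11, 16 and 12 counts with THZ1, against 28, 37 and 38 counts with DMSO. In Panc327, HEXIM2 had 10, 13 and 5 counts with THZ1, against 23, 23 and 30 counts with DMSO. In SUIT2, HEXIM2 had 43, 35 and 39 counts with THZ1, against 38, 38 and 49 counts with DMSO. After scaling, the groups were apart in BxPC3 only, where HEXIM2 averaged 2.26 ± 0.493 CPM with THZ1 and 3.97 ± 0.495 CPM with DMSO (SD, n = 3). HEXIM2 had a log2 fold change of -0.82 there (SE 0.27, edgeR adjusted p = 0.00536). It was -0.62 in Panc327 (95% interval -1.25 to 0.00, adjusted p = 0.069) and -0.06 in SUIT2 (-0.46 to 0.33, adjusted p = 0.89). The Panc327 fall was called without THZ1 replicate 2 (-0.99, adjusted p = 0.0172), with limma voom (-0.67, adjusted p = 0.0482) and with scaling by library size alone (-0.95, adjusted p = 0.00486). AC138150.2, annotated on the opposite strand, shares up to 1026 bases of exon with HEXIM2, and was not analysed here, so the same limit holds.

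LARP7, which binds and stabilises 7SK RNA, fell in all 3 lines. In BxPC3, LARP7 stood at 25.3, 29.2 and 25.2 CPM with THZ1, against 41.7, 43.2 and 44.3 CPM with DMSO. In Panc327, LARP7 was at 23.9, 26.3 and 21.7 CPM with THZ1, against 30.7, 31.0 and 35.6 CPM with DMSO. In SUIT2, LARP7 was at 37.7, 41.2 and 38.0 CPM with THZ1, against 48.5, 45.9 and 44.1 CPM with DMSO. Each THZ1 library was below each DMSO library of its line. LARP7 had a log2 fold change of -0.70 in BxPC3 (SE 0.09, edgeR adjusted p = 1.83e-11), -0.44 in Panc327 (SE 0.10, adjusted p = 3.08e-05) and -0.25 in SUIT2 (SE 0.07, adjusted p = 0.016). By library size alone LARP7 was at -1.09 in BxPC3 and -0.76 in Panc327. The SUIT2 call was lost without DMSO replicate 1 (-0.21, adjusted p = 0.0883), THZ1 replicate 1 (-0.23, adjusted p = 0.0637) or THZ1 replicate 3 (-0.23, adjusted p = 0.061). ZGRF1, a gene on the opposite strand whose exons share up to 32 bases with those of LARP7, changed by -1.19 in BxPC3 (edgeR adjusted p = 1.04e-12), by -1.55 in Panc327 (adjusted p = 2.11e-16) and by 0.02 in SUIT2 (adjusted p = 0.965). AC106864.1, also on the opposite strand, shares up to 165 bases and was not analysed here, and reads from these shared bases cannot be told apart.

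MEPCE, the methylphosphate capping enzyme of 7SK, had the largest change of any member, a fall in BxPC3 and Panc327 with none detected in SUIT2. In BxPC3, MEPCE stood at 38.2, 43.5 and 38.7 CPM with THZ1, against 106.7, 108.7 and 102.7 CPM with DMSO. In Panc327, MEPCE was at 14.2, 8.90 and 12.4 CPM with THZ1, against 52.1, 51.9 and 56.8 CPM with DMSO. In SUIT2, MEPCE was at 128.8, 118.0 and 111.9 CPM with THZ1, against 113.3, 124.0 and 120.4 CPM with DMSO. The groups were far apart in BxPC3 and Panc327 and overlapped in SUIT2. MEPCE had a log2 fold change of -1.40 in BxPC3 (SE 0.07, edgeR adjusted p = 3.03e-32) and -2.16 in Panc327 (SE 0.11, adjusted p = 8.7e-34). In Panc327, 4.66% of tested genes had a lower fold change. It was 0.00 in SUIT2 (95% interval -0.11 to 0.12, edgeR adjusted p = 1). ZCWPW1, on the opposite strand with up to 176 shared bases of exon, had at most 15 counts in a library.

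BRD2, the more abundant of the BET readers measured here, rose in BxPC3 and SUIT2 and fell in Panc327. In BxPC3, BRD2 stood at 547.0, 575.6 and 560.3 CPM with THZ1, against 282.4, 294.8 and 287.7 CPM with DMSO. In Panc327, BRD2 was at 195.0, 177.7 and 197.1 CPM with THZ1, against 221.7, 232.4 and 244.7 CPM with DMSO. In SUIT2, BRD2 was at 462.3, 451.4 and 457.9 CPM with THZ1, against 325.4, 337.8 and 330.6 CPM with DMSO. The 2 groups did not overlap in any line. BRD2 had a log2 fold change of 0.96 in BxPC3 (SE 0.04, edgeR adjusted p = 8.42e-38), -0.29 in Panc327 (SE 0.05, adjusted p = 1.91e-08) and 0.47 in SUIT2 (SE 0.04, adjusted p = 3.78e-16). In SUIT2, 95.5% of tested genes had a lower fold change. The size of the change depended on the scaling: by library size alone BRD2 was at 0.56 in BxPC3 and -0.62 in Panc327, and the Panc327 value was -0.18 with RLE size factors (adjusted p = 0.000378) and with DESeq2 (adjusted p = 0.000372). HLA-DMA, on the opposite strand with up to 55 shared bases of exon, had 343 to 510 counts per library in SUIT2 and at most 23 in the other lines. AL645941.3 on the opposite strand (up to 310 shared bases) and AL645941.1 on the same strand (up to 196) were not analysed here.

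BRD3, a paralog that also carries a pair of bromodomains, fell in BxPC3 and Panc327, unlike BRD2 in BxPC3. In BxPC3, BRD3 stood at 19.6, 21.4 and 20.6 CPM with THZ1, against 40.5, 39.5 and 38.4 CPM with DMSO. In Panc327, BRD3 was at 16.5, 19.7 and 20.1 CPM with THZ1, against 40.7, 36.2 and 37.0 CPM with DMSO. In SUIT2, BRD3 was at 52.2, 48.2 and 47.5 CPM with THZ1, against 52.8, 55.3 and 50.3 CPM with DMSO. The groups were apart in BxPC3 and Panc327 and overlapped in SUIT2. BRD3 had a log2 fold change of -0.94 in BxPC3 (SE 0.09, edgeR adjusted p = 9.02e-16), -1.02 in Panc327 (SE 0.10, adjusted p = 1.46e-16) and -0.10 in SUIT2 (95% interval -0.23 to 0.04, adjusted p = 0.394). BRD3OS, an opposite-strand gene sharing up to 1281 bases of exon with BRD3, is counted under LINC00094, a synonym in RefSeq. LINC00094 had 42 to 271 counts per library and changed by -0.62 in BxPC3 (edgeR adjusted p = 1.78e-06) and by -0.57 in Panc327 (adjusted p = 0.000256). In SUIT2 its log2 fold change was -0.15 (adjusted p = 0.28). Reads from the bases it shares with BRD3 cannot be told apart here.

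**Figure D2:**
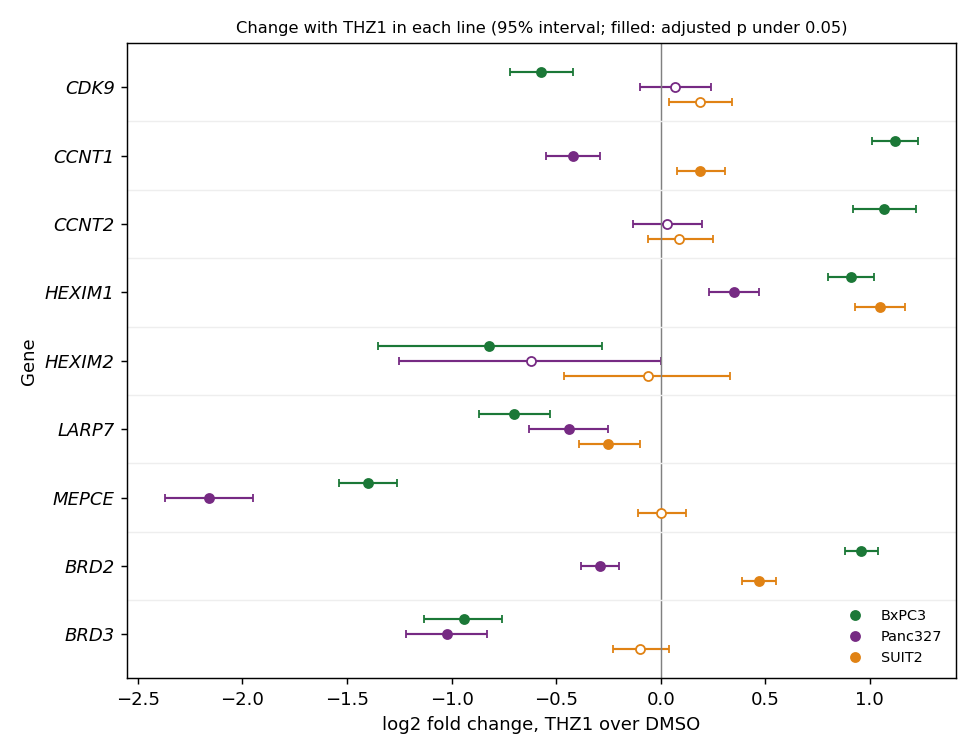
Log2 fold change of each gene, THZ1 over DMSO (horizontal axis), by gene (vertical axis) for BxPC3 (green), Panc327 (purple) and SUIT2 (orange), with 95% intervals and filled points where the adjusted p was below 0.05. HEXIM1 lies right of 0 in all 3 lines and LARP7 left of 0, while CCNT1 (1.12 and -0.42) and BRD2 (0.96 and -0.29) lie on opposite sides in BxPC3 and Panc327.

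Whether the lines differed in their response was tested directly, by the difference of the 3 fold changes. These comparisons share libraries, so their values are given side by side. The response was higher in BxPC3 than in Panc327 for 5 members and lower for 1, where 22.2% of tested genes were higher and 14.1% lower. The cyclins and BRD2 led the higher ones: CCNT1 differed by 1.54 (SE 0.09, edgeR adjusted p = 9.01e-28), BRD2 by 1.25 (SE 0.06, adjusted p = 3.07e-32) and CCNT2 by 1.04 (SE 0.11, adjusted p = 7.69e-13). MEPCE, which fell further in Panc327, differed by 0.76 (SE 0.14, edgeR adjusted p = 3.95e-06), and HEXIM1 by 0.56 (SE 0.08, adjusted p = 2.18e-08). CDK9 was the 1 member whose response was lower in BxPC3, by -0.64 (SE 0.12, edgeR adjusted p = 3.14e-06). LARP7 differed by -0.26 (95% interval -0.52 to 0.00, edgeR adjusted p = 0.114), BRD3 by 0.08 (-0.20 to 0.36, adjusted p = 0.707) and HEXIM2 by -0.19 (-1.05 to 0.66, adjusted p = 0.787). The LARP7 difference was called with RLE size factors (-0.34, adjusted p = 0.034), by library size alone (-0.33, adjusted p = 0.0388) and with only the libraries of these lines in the fit (-0.40, adjusted p = 0.0101).

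Against SUIT2, the response in BxPC3 was higher for 3 members and lower for 4, where 27.3% of tested genes were higher and 27.6% lower. The 3 higher were CCNT2, with a difference of 0.98 (SE 0.11, edgeR adjusted p = 7.51e-13), CCNT1, with 0.92 (SE 0.08, adjusted p = 6.14e-18), and BRD2, with 0.50 (SE 0.06, adjusted p = 2e-12). With scaling by library size alone the BRD2 difference was 0.12 (adjusted p = 0.0731), that of CCNT1 0.54, that of CCNT2 0.60 and that of LARP7 -0.83. Lower in BxPC3 were MEPCE at -1.41 (SE 0.09, edgeR adjusted p = 1.23e-24), BRD3 at -0.85 (SE 0.12, adjusted p = 9.36e-10), CDK9 at -0.76 (SE 0.11, adjusted p = 1.95e-09) and LARP7 at -0.45 (SE 0.12, adjusted p = 0.000485). HEXIM1 differed by -0.15 (95% interval -0.31 to 0.02, edgeR adjusted p = 0.127), and by -0.22 (adjusted p = 0.015) without BxPC3 DMSO replicate 1. By library size alone that difference was -0.52 (adjusted p = 3.86e-08). HEXIM2 differed by -0.75 (95% interval -1.42 to -0.08, edgeR adjusted p = 0.0506), and was called without BxPC3 DMSO replicate 1 (adjusted p = 0.0349), BxPC3 THZ1 replicate 2 (0.0303) or SUIT2 DMSO replicate 3 (0.0408), with only the libraries compared (0.0485), and by library size alone (0.00246).

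The response in Panc327 was lower than in SUIT2 for 5 members and higher for 0 at an adjusted p below 0.05, where 28.3% of tested genes were higher and 32.4% lower. DESeq2, limma voom and an unadjusted p below 0.05 also gave 0 higher. MEPCE differed by -2.16 (SE 0.12, edgeR adjusted p = 6.5e-29), BRD3 by -0.93 (SE 0.12, adjusted p = 1.05e-10), BRD2 by -0.76 (SE 0.06, adjusted p = 7.66e-20), HEXIM1 by -0.70 (SE 0.09, adjusted p = 1.03e-11) and CCNT1 by -0.61 (SE 0.09, adjusted p = 3e-09). The other 4 were CDK9 at -0.12 (95% interval -0.34 to 0.10), CCNT2 at -0.06 (-0.29 to 0.17), LARP7 at -0.19 (-0.43 to 0.05) and HEXIM2 at -0.56 (-1.30 to 0.19). All 9 were called lower with scaling by library size alone, CCNT1 at -0.92.

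**Figure D3:**
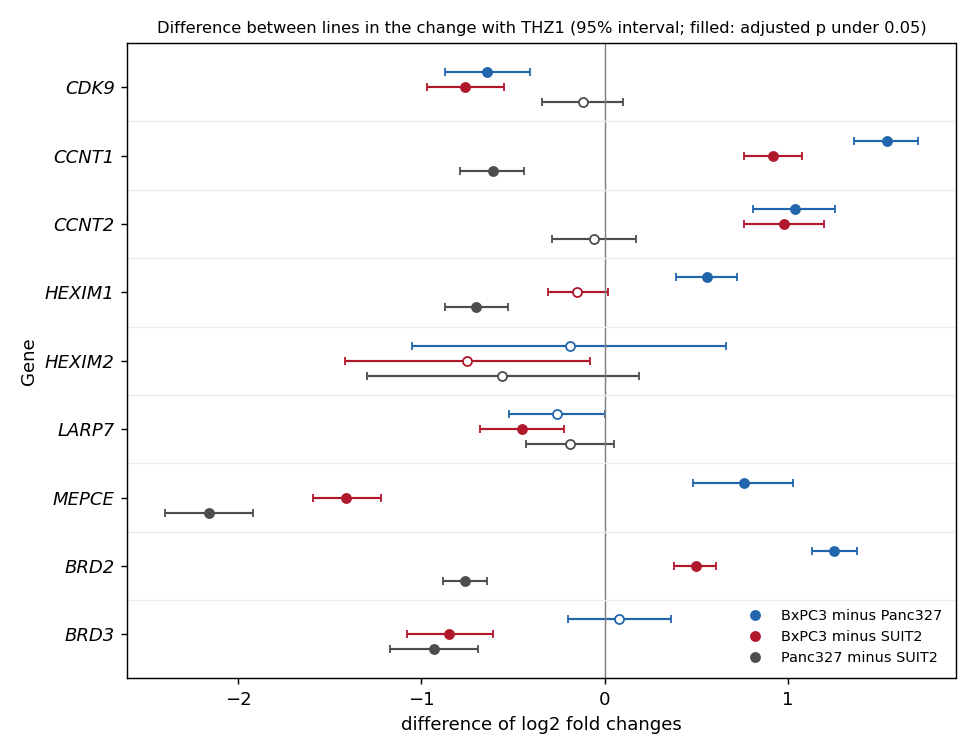
Difference between lines in the log2 fold change with THZ1 (horizontal axis) by gene (vertical axis), for BxPC3 minus Panc327 (blue), BxPC3 minus SUIT2 (red) and Panc327 minus SUIT2 (grey), with 95% intervals and filled points where the adjusted p was below 0.05. CCNT1 and CCNT2 lie right of 0 for both differences with BxPC3, and MEPCE lies at -1.41 and -2.16 in the differences from SUIT2.

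Ratios of counts within a library do not depend on how libraries are scaled, and 5 were compared in each line, 15 tests in all. The smallest p that 3 against 3 libraries allow is 0.1 in the exact two-sided permutation test, which is 0.115 after Benjamini-Hochberg adjustment, so no ratio could be called. HEXIM1 stood against CDK9 at a log2 ratio of 2.25 ± 0.10 with THZ1 and 0.77 ± 0.19 with DMSO in BxPC3, 1.46 ± 0.09 with THZ1 and 1.18 ± 0.11 with DMSO in Panc327, and 1.45 ± 0.12 with THZ1 and 0.59 ± 0.01 with DMSO in SUIT2 (SD, n = 3). The ratio of inhibitor to kinase RNA was higher with THZ1 by 1.48 in BxPC3, 0.28 in Panc327 and 0.87 in SUIT2 on the log2 scale. HEXIM1 against HEXIM2 was higher with THZ1 by 1.71 in BxPC3, 1.01 in Panc327 and 1.11 in SUIT2. In Panc327 this ratio was noisy, at 5.87 ± 0.72 with THZ1 and 4.86 ± 0.20 with DMSO (SD, n = 3). HEXIM2 had only 10, 13 and 5 counts there with THZ1. Leaving out each library moved the Panc327 difference between 0.64 and 1.35. BRD2 against BRD3 was also higher in each line, by 1.90, 0.72 and 0.56. For these 3 ratios the THZ1 and DMSO libraries did not overlap in any line. How often ratios of other gene pairs separate in this way was not tested. Of single genes, 69.4% were called in BxPC3, 73.4% in Panc327 and 14.6% in SUIT2.

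The cyclins and the 7SK-binding proteins shifted differently by line. CCNT1 against CCNT2 differed by 0.05 in BxPC3 (exact permutation p = 0.7), where both had risen, by -0.46 in Panc327 (p = 0.1) and by 0.10 in SUIT2 (p = 0.5). Without BxPC3 DMSO replicate 1 the BxPC3 value was -0.02. LARP7 against MEPCE was 0.70 higher with THZ1 in BxPC3 and 1.76 higher in Panc327, and differed by -0.25 in SUIT2. Its THZ1 and DMSO libraries did not overlap in any line, again with no share of other gene pairs to set beside this.

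**Figure D4:**
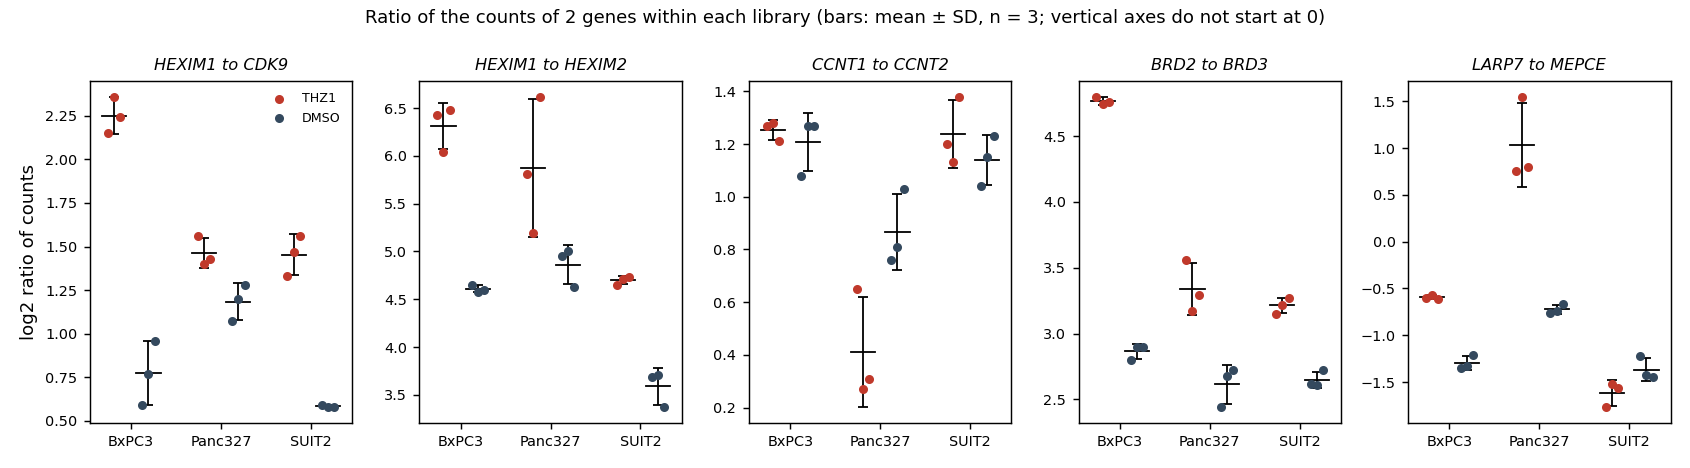
Log2 ratio of the counts of 2 genes within each library (vertical axes, which do not start at 0) by line (horizontal axes), THZ1 in red and DMSO in blue, with mean and SD of 3 libraries. The ratios of HEXIM1 to CDK9, HEXIM1 to HEXIM2 and BRD2 to BRD3 lie higher with THZ1 in each line, by 0.28 to 1.48, 1.01 to 1.71 and 0.56 to 1.90.

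The proteins that work beside P-TEFb were described from 4 lists, beside shares of all tested genes of 35.2% higher and 34.1% lower in BxPC3, 35.6% and 37.8% in Panc327, and 6.95% and 7.64% in SUIT2. The super elongation complex, which carries P-TEFb to paused polymerase, had 4 of 9 genes higher and 1 lower in BxPC3, 3 higher and 4 lower in Panc327, and 4 higher and 0 lower in SUIT2. In SUIT2, DESeq2, limma voom and an unadjusted p below 0.05 in edgeR also gave 0 lower. The median log2 fold change of the list was 0.12 in BxPC3, 0.07 in Panc327 and 0.11 in SUIT2, against 0.00, -0.01 and 0.01 for all tested genes. EAF1, which stimulates ELL, rose by 1.39 in BxPC3 (SE 0.07, edgeR adjusted p = 8.06e-33) and by 0.98 in Panc327 (SE 0.06, adjusted p = 1.62e-27). ELL2, an elongation factor, rose by 1.03 in BxPC3 (edgeR adjusted p = 5.16e-27), by 0.18 in Panc327 (adjusted p = 0.00683) and by 0.70 in SUIT2 (adjusted p = 0.00126), and its Panc327 value was -0.15 (adjusted p = 0.032) by library size alone. ELL rose in all 3 lines, by 0.97, 0.70 and 0.50 (edgeR adjusted p = 1.55e-20, 4.25e-10 and 0.00265). AFF1, a scaffold of the complex, rose by 0.26 in SUIT2 (edgeR adjusted p = 0.00238) but was called lower in Panc327, at -0.36 (adjusted p = 0.00138). The genes that fell furthest in Panc327 were EAF2, a paralog of EAF1, at -1.32 (SE 0.33, edgeR adjusted p = 0.000248), and the histone acylation readers MLLT3, at -0.79 (SE 0.16, adjusted p = 8.34e-06), and MLLT1, at -0.76 (adjusted p = 2.99e-18). MLLT1 was the 1 gene that fell in BxPC3, at -0.42 (edgeR adjusted p = 1.22e-07). With scaling by library size alone, 3 genes were higher and 5 lower in BxPC3, and 2 higher and 6 lower in Panc327.

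Of DSIF, NELF and SPT6, the pausing factors on which P-TEFb acts and a histone chaperone, 2 of 7 genes were higher and 4 lower in BxPC3 (all tested genes 35.2% and 34.1%), and 4 higher and 2 lower in Panc327 (35.6% and 37.8%). In SUIT2, where 14.6% of all tested genes were called, 0 were called by edgeR, DESeq2 or limma voom, with 1 higher and 1 lower at an unadjusted p below 0.05. The median was -0.18, 0.17 and 0.00 in BxPC3, Panc327 and SUIT2. SUPT5H, the large DSIF subunit, rose by 0.75 in BxPC3 (SE 0.04, edgeR adjusted p = 1.6e-29) and by 0.62 in Panc327 (SE 0.04, adjusted p = 6.29e-27). SUPT4H1, the small one, rose by 0.24 in Panc327 (edgeR adjusted p = 0.003), a value that was -0.09 by library size alone. NELFCD rose by 0.53 and 0.54, and NELFA changed by -1.03 (edgeR adjusted p = 6e-12) and -1.04 (adjusted p = 8.61e-11), so subunits of 1 complex moved in opposite directions. The other falls in BxPC3 were NELFE at -0.27 (edgeR adjusted p = 0.00176), NELFB at -0.18 (adjusted p = 0.0043) and SUPT6H, which encodes SPT6, at -0.18 (adjusted p = 0.00118). SUPT6H also fell in Panc327, at -0.21 (edgeR adjusted p = 4.37e-05), but was not called there with RLE size factors (-0.09, adjusted p = 0.0733) or DESeq2 (-0.09, adjusted p = 0.0844). NELFE, in contrast, was called higher in Panc327, at 0.17 (edgeR adjusted p = 0.0343), but was at -0.16 there by library size alone (adjusted p = 0.0447). By library size alone the count was 2 higher and 5 lower in BxPC3, and 2 higher and 4 lower in Panc327.

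The PAF1 complex, which travels with elongating polymerase, had 3 of 6 genes higher and 3 lower in BxPC3 (all tested genes 35.2% and 34.1%), 1 higher and 4 lower in Panc327 (35.6% and 37.8%) and 1 higher in SUIT2 (6.95%), with medians of -0.05, -0.57 and 0.14. WDR61 rose by 0.65 in BxPC3 (SE 0.07, edgeR adjusted p = 6.09e-14) and by 0.48 in Panc327 (SE 0.08, adjusted p = 4.34e-08). In BxPC3 CTR9 rose by 0.50 (edgeR adjusted p = 1.78e-11) and CDC73 by 0.20 (adjusted p = 0.0144). CTR9 was also the gene higher in SUIT2, at 0.17 (edgeR adjusted p = 0.0346), a call lost with DESeq2 (adjusted p = 0.0796) and by library size alone (adjusted p = 0.0637). In Panc327 CTR9 went the other way and was called lower, at -0.47 (edgeR adjusted p = 1.23e-07). LEO1 changed by -1.59 in Panc327 (SE 0.11, edgeR adjusted p = 1.4e-23) and by -0.30 in BxPC3 (SE 0.08, adjusted p = 0.000309). RTF1 changed by -0.93 in BxPC3 (edgeR adjusted p = 5.15e-24) and by -0.67 in Panc327 (adjusted p = 1.64e-14), and PAF1 by -0.73 (adjusted p = 2.23e-16) and -0.78 (adjusted p = 2.75e-23). By library size alone 1 gene of the complex was higher and 4 lower in BxPC3, and 0 higher and 5 lower in Panc327. With that scaling CDC73 was at -0.20 in BxPC3 (adjusted p = 0.0168), and CTR9 in BxPC3 (0.10, adjusted p = 0.136) and WDR61 in Panc327 (0.16, adjusted p = 0.0594) were not called.

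Of 9 factors that bind 7SK RNA after P-TEFb leaves it or that promote its release, 7 were higher and 0 lower in BxPC3 (all tested genes 35.2% and 34.1%), where DESeq2, limma voom and an unadjusted p below 0.05 also gave 0 lower. In Panc327 5 were higher and 2 lower (all tested genes 35.6% and 37.8%), and in SUIT2 1 was higher and 3 lower (6.95% and 7.64%), with medians of 0.34, 0.35 and -0.08 in the 3 lines. HNRNPA2B1, which binds 7SK RNA free of P-TEFb, rose by 0.55 in BxPC3 and 0.67 in Panc327 (edgeR adjusted p = 5.36e-27 and 1.54e-32). TRIM28 rose by 0.77 in BxPC3 (edgeR adjusted p = 1.36e-30) and JMJD6 by 0.36 (adjusted p = 0.00304), and by library size alone JMJD6 was at -0.03 there. In Panc327 HNRNPR rose by 0.58 (edgeR adjusted p = 4.09e-23) and HNRNPA1 by 0.52 (adjusted p = 2.99e-23), whereas SRSF2 changed by -0.71 (SE 0.04, adjusted p = 1.28e-28) and SYNCRIP by -0.29 (adjusted p = 3.04e-09). In SUIT2 HNRNPR rose by 0.15 (edgeR adjusted p = 0.00531), and the genes that fell were JMJD6 at -0.46 (adjusted p = 0.000586), HNRNPA1 at -0.22 (adjusted p = 3.91e-06) and DDX21, an RNA helicase, at -0.21 (adjusted p = 7.91e-05). DDX21 was called higher in BxPC3, at 0.22 (edgeR adjusted p = 1.09e-06), but was at -0.17 there by library size alone (adjusted p = 5.86e-05). The counts depended on the scaling and the tool. By library size alone they were 2 higher and 4 lower in BxPC3, 3 higher and 4 lower in Panc327 and 1 higher and 5 lower in SUIT2. RLE size factors and DESeq2 gave 7 higher and 2 lower in Panc327, and limma voom gave 1 higher and 4 lower in SUIT2.

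The 7SK RNA itself, RN7SK, is not polyadenylated and has many near-identical copies, so its counts from poly(A) libraries are uncertain. They ranged from 3 to 54 per library. In Panc327 there were 14, 16 and 19 counts with THZ1, against 5, 6 and 3 with DMSO, and the log2 fold change was 2.58 (SE 0.84, edgeR adjusted p = 0.0126). SUIT2 DMSO replicate 1, with 54 counts, stood apart from replicates 2 and 3 with 6 and 12. RN7SK was not called by edgeR in BxPC3 (log2 fold change 0.68) or in SUIT2 (-2.11).

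The genes whose levels over the 18 libraries were most like those of a member were listed for HEXIM1, CDK9 and BRD2, among the 9597 genes averaging 10 CPM or more. Points share a line and a treatment, so a Pearson correlation is a description only. For HEXIM1 they were TMED1 (r = 0.918), LPIN2 (0.893) and TMEM50B (0.883). For CDK9 they were PLK3 (0.849), CCDC120 (0.837) and SS18L1 (0.831). For BRD2 they were PDZD8 (0.970), CLDN4 (0.961) and EHMT2 (0.960). Between members, BRD2 and CCNT1 had r = 0.926, HEXIM1 and CCNT2 0.704, and HEXIM1 and CDK9 0.044. Other pairs were negative, among them HEXIM1 and BRD3 (-0.59), HEXIM1 and LARP7 (-0.544), and CDK9 and CCNT2 (-0.409).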

How the data were processed

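Poly(A) RNA was sequenced with TruSeq RNA v2 after extraction with RNeasy Mini, per the labels' protocols. Each deposited file gives the authors' raw counts per gene symbol for 1 library. The submitters' processing notes name bcl2fastq 1.8.4, TopHat2 2.1.0, HTSeq 0.6.1 and hg38. The annotation, strand setting and counting mode were not given in the sources used here. The 5 summary entries per file, 21.3% to 64.6% of records, were left out.

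The analysis used edgeR 4.0.16, DESeq2 1.42.0 and limma 3.58.1 (R 4.3.3), with Python 3.11.15. filterByExpr (minimum count 10, minimum total 15) kept 14011 genes. After TMM scaling, all 18 libraries entered 1 robust quasi-likelihood fit of the 6 groups, with 12 residual degrees of freedom, and adjusted p-values cover all genes tested. An approximate SE, taken as the size of the log2 fold change over the root of its F statistic, gives the 95% intervals. Ratios were computed as log2 of counts plus 0.5. Levels per kilobase use merged exons of GENCODE 29. The code was tested on simulated data.

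The members and the lists were chosen with earlier results of these data known. The text names all 9 members, of each other list up to 3 called genes per direction with the largest change in each comparison of THZ1 with DMSO, and the 3 genes most correlated with HEXIM1, CDK9 and BRD2. Where a list gene so named was called in the opposite direction in another line, that call is given too. Alternatives were limma voom, DESeq2, scaling by library size only or by RLE size factors, no filter, only the libraries compared, a replicate block, a ratio pseudocount of 1 and leaving out each library in turn. No 2 libraries of a group agreed within sampling noise. A planned search of protein motifs was not run.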

Additional observations from a re-analysis of the deposited data

Results flagged for a closer look

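Several members changed with THZ1 by different amounts in different lines, each by an edgeR test of the difference of log2 fold changes with an adjusted p below 0.05. Between BxPC3 and Panc327, CDK9 differed by -0.64, CCNT1 by 1.54, CCNT2 by 1.04, HEXIM1 by 0.56, MEPCE by 0.76 and BRD2 by 1.25. Between BxPC3 and SUIT2, CDK9 differed by -0.76, CCNT1 by 0.92, CCNT2 by 0.98, LARP7 by -0.45, MEPCE by -1.41, BRD2 by 0.50 and BRD3 by -0.85. Between Panc327 and SUIT2, CCNT1 differed by -0.61, HEXIM1 by -0.70, MEPCE by -2.16, BRD2 by -0.76 and BRD3 by -0.93. Each pair of these comparisons shares the libraries of 1 line.

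In the summary entries of the count files, which no comparison of genes used, reads aligned to several places made up 22.8% of records in BxPC3 with THZ1, above 12.8% with DMSO, and 52.8% in Panc327 with THZ1, above 13.6% with DMSO. The exact two-sided permutation p was 0.1 in each of these lines (n = 3 each), the smallest possible, and 0.7 in SUIT2.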

How the results depend on the processing

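The number of members called stayed within 1.5 times under every alternative tried but 1: with scaling by library size alone, 9 members in place of 5 responded less in Panc327 than in SUIT2 (0 higher, 9 lower). In Panc327 that scaling also reversed CDK9 (-0.26) and CCNT2 (-0.29), neither called under TMM, and of all called responses 22.8% were higher in BxPC3 than in SUIT2 (49.7% under TMM), 28.1% in Panc327 than in SUIT2 (46.7%) and 50.8% in BxPC3 than in Panc327 (61.1%, or 49.6% with RLE and 40.8% with only the libraries compared). The cause was not tested beyond the shift of the median gene. In SUIT2, DESeq2 called 1348 genes with THZ1 in place of 2044, and 1353 were called without SUIT2 DMSO replicate 3. Leaving out each library moved the log2 ratio of CCNT1 to CCNT2 in BxPC3 between -0.02 and 0.08 (0.05 with all). Replicate numbers did not pair the libraries: same-numbered THZ1 and DMSO libraries correlated at -0.21 to 0.04, and not every library correlated best with its own number. A fit with a replicate block called 9, 6 and 4 members in BxPC3, Panc327 and SUIT2, as without it, and lost 1 call, CCNT1 between BxPC3 and SUIT2 with DMSO (-0.11, edgeR adjusted p = 0.0994). RLE size factors (adjusted p = 0.0591), a fit of only the libraries compared (0.0937) and DESeq2 (0.0827) lost that call too. DESeq2 also lost CCNT2 in the same comparison (adjusted p = 0.0617) and HEXIM2 between BxPC3 and Panc327 with DMSO (0.0751). HEXIM2 had 5 to 49 counts per library.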
